A study of Mus musculus with 10 samples.

Results

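FAIRE sites were described at the loci of 5 mouse genes of the FGF-ERK pathway, Etv5, Etv4, Dusp6, Spry2 and Spry4, in 4 cell types. FAIRE (formaldehyde-assisted isolation of regulatory elements) recovers DNA poor in nucleosomes, and a site is a stretch that the authors' list gives as enriched in that DNA. A site was a member if it overlapped 1 of 5 intervals of build mm9: chr16:22370001-22450000 for Etv5, chr11:101615001-101665000 for Etv4, chr10:98705001-98750000 for Dusp6, chr14:106270001-106320000 for Spry2 and chr18:38725001-38785000 for Spry4. These gave 539 member sites of 1816946 in all, of which 160 were in embryonic stem cells (ESC), 135 in epiblast stem cells (EpiSC), 158 in neural stem cells (NSC) and 86 in mouse embryonic fibroblasts (MEF). The loci were chosen by gene, with the numbers, scores and positions of sites there already known, so their values are a description and carry no test.

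ESC were E14 cells kept on gelatin in N2/B27 medium with 1 uM of the MEK inhibitor PD032590, 3 uM of the GSK3 inhibitor CH99021 and 1000 U/ml LIF. EpiSC of the E3 line were expanded on mitomycin C-treated MEF in MEF-conditioned medium with 5 ng/ml FGF2, and spent the last 2 days before crosslinking on fibronectin without feeders. NSC, labelled as neural progenitors derived from ES cells, grew in 10 ng/ml each of FGF2 and EGF, and MEF came from E16.5 embryos and grew in 10% FBS. The MEK inhibitor was thus given in ESC and FGF2 in EpiSC and NSC, but the cell types also differ in state, medium and feeder contact, and these cannot be told apart. Each cell type has 2 samples in the labels and 1 list of sites here. There is no spread between replicates, no test between cell types and no known read depth. The source label of the MEF samples reads as neural chromatin, and they are called MEF here from their title and cell type. Cell identity was not checked against marker genes, since no mm9 gene annotation was used here.

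In the FGF-ERK pathway, fibroblast growth factors bind receptor tyrosine kinases, which signal through RAS, RAF and MEK to the kinase ERK. Etv5 and Etv4 encode ETS transcription factors of the PEA3 group that are induced by this signal and bind DNA with a GGAA core. Dusp6 encodes a phosphatase that removes phosphate from ERK, and Spry2 and Spry4 encode Sprouty proteins that dampen signalling upstream of ERK, so that these genes act as negative feedback. In mouse pluripotent cells FGF-ERK signalling favours exit from the ground state, and blocking MEK helps to hold cells in it. In neural progenitors FGF2 supports self-renewal.

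To show the kind of sequence found at the starts of these genes, the 250 bases before the start in RefSeq (build GRCm38.p6) are given for 3 of the 5 genes. These are Etv5 (the first of its 2 listed starts; chromosome 16, minus strand), Dusp6 (chromosome 10, plus strand) and Spry2 (chromosome 14, minus strand), written 5′ to 3′ along the gene, with CCAAT boxes on either strand in capitals.
Etv5: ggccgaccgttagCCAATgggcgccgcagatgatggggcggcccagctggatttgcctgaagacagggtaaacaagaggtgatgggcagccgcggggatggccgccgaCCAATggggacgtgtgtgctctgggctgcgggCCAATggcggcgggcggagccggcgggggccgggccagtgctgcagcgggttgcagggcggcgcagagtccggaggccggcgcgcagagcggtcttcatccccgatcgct
Dusp6: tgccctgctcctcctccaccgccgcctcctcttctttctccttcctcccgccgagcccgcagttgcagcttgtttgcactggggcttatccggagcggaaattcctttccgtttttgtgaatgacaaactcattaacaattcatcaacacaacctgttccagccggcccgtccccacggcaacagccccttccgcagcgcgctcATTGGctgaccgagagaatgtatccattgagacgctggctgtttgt
Spry2: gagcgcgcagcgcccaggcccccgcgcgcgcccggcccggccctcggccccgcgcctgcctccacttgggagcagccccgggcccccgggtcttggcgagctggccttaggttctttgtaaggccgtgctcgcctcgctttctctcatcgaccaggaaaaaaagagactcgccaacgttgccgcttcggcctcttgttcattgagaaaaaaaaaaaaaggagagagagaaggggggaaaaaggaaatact
They hold 27, 16 and 23 CpG dinucleotides, against a median of 6 over the 32851 promoters of the table, and 91.4%, 74.6% and 86.7% of promoters have fewer. CCAAT was found 3 times before Etv5, once before Dusp6 and not before Spry2. The 250 bases before the other Etv5 start, not shown, hold 1 CCAAT and 18 CpG, and 78.3% of promoters have fewer CpG. At least 1 match of CCAAT on either strand occurs in 33.8% of promoters. Of ETS motifs only the exact sequence CCGGAA was searched. It is found in 12.0% of promoters on either strand and was not in these 250 bases of any of the 3. The shorter GGAA core does occur in the Dusp6 and Spry2 sequences above, and its share over all promoters was not computed. Because the sites are on mm9 and this table is not, whether a site covers these sequences was not determined, nor whether sites lie in exons, introns or neighbouring genes. In the table the nearest protein-coding neighbours are Tra2b and Dgkg for Etv5, Poc1b, Galnt4 and Csl for Dusp6, and Ndfip2 and Trim52 for Spry2. Those of Etv4 and Spry4 are not given here.

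Across the 5 loci, ESC and NSC had about as many sites as each other and MEF the fewest. With each list cut to its highest-scoring sites, as many as the shortest list has, the totals were 144 ESC, 135 EpiSC, 113 NSC and 73 MEF sites, so that NSC then came below both pluripotent lists. ESC sites covered 97.7 kb of the 285 kb (34.3%), NSC sites 129 kb (45.2%), EpiSC sites 80.9 kb (28.4%) and MEF sites 41.0 kb (14.4%). For scale, the median autosomal windows of the same lengths would together hold 29 ESC, 39 EpiSC, 57 NSC and 45 MEF sites. The loci thus held 5.52 times as many ESC sites as such windows, 3.46 times as many EpiSC, 2.77 times as many NSC and 1.91 times as many MEF sites. The median ESC window is poor beside a broad upper range: of windows of 80 kb it held 8 ESC sites (quartiles 2 and 25), against 11 in EpiSC (4 and 20), 16 in NSC (6 and 27) and 13 in MEF (7 and 19).

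**Figure D1:**
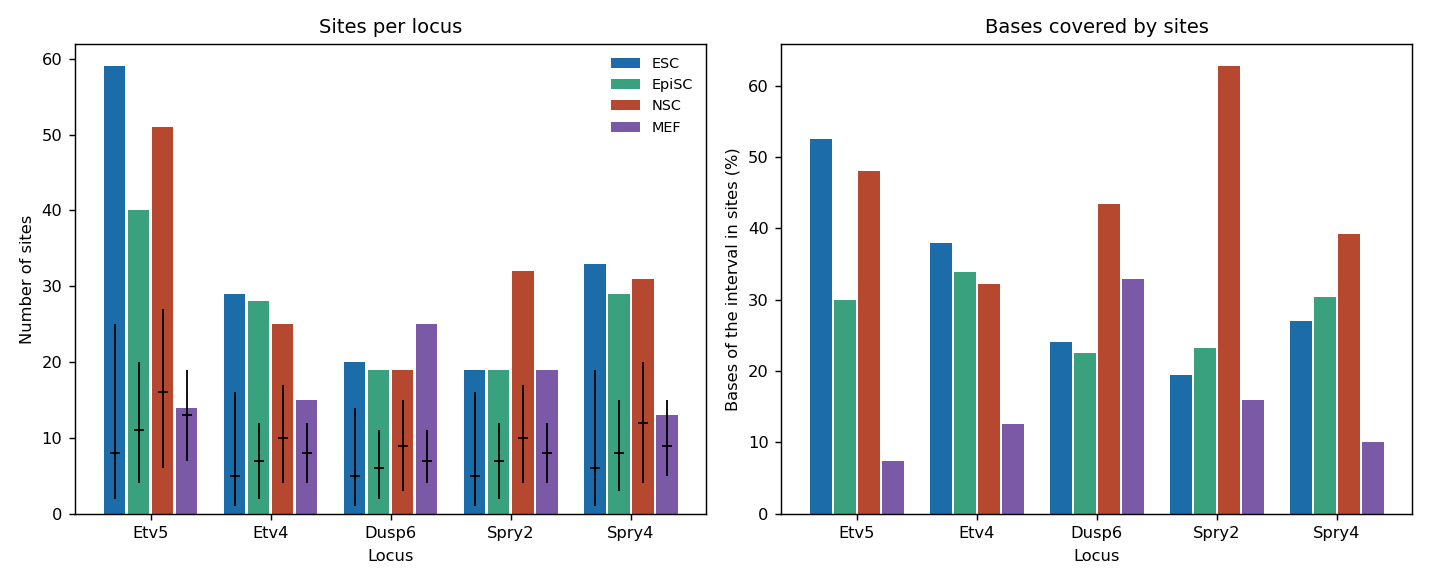
Sites at each locus by cell type. Left, bars give the number of sites, with the median (dash) and quartiles (line) of all autosomal windows of the same length in black; right, bars give the percentage of the bases of the interval that lie in sites. ESC lead at Etv5 with 59 sites, NSC cover 62.7% of the Spry2 interval, and MEF have 25 sites at Dusp6 and 14 at Etv5.

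Etv5, the longest interval, had the most sites of the 5 in ESC, EpiSC and NSC, and few in MEF. It held 59 ESC, 40 EpiSC, 51 NSC and 14 MEF sites. Per 10 kb this came to 7.38 in ESC, more than at any other locus in that list. In EpiSC it came to 5.0, below 5.6 at Etv4, and in NSC to 6.38, beside 6.4 at Spry2. In the 80 kb of Etv5 the sites covered 52.5% of bases in ESC, 29.9% in EpiSC, 7.33% in MEF and 48.0% in NSC. Only 0.178% of the 30889 autosomal windows of 80 kb held as many ESC sites, 0.994% held as many EpiSC sites and 2.45% as many NSC sites. For MEF the share was 46.6%, and the 14 sites are close to the median window of 13. The 2 Mb around the locus were also rich in ESC, with 28.9 sites per 80 kb, so that the locus stood at 2.04 times its surroundings in ESC, 1.76 times in EpiSC, 1.14 times in MEF and 2.47 times in NSC.

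Within the Etv5 interval the longest cluster of sites lay in different places in the pluripotent cells and in NSC. The longest cluster of ESC sites, with gaps of at most 1 kb, spanned 27.6 kb at chr16:22390766-22418379 and held 25 sites that covered 71.2% of it. The longest EpiSC cluster, of 15 sites and 15.2 kb, lay inside it at chr16:22403041-22418253. The longest NSC cluster, of 19 sites and 28.2 kb, lay almost wholly to the other side, at chr16:22416290-22444526. In the 10 kb from 22400001 to 22410000 sites covered 73.6% of bases in ESC, 52.1% in EpiSC, 3.70% in MEF and 46.3% in NSC. From 22430001 to 22440000 NSC sites covered 88.9%, ESC sites 41.9%, EpiSC sites 23.4% and MEF sites 14.5%. In the last 10 kb, from 22440001 to 22450000, ESC sites again covered the most, with 61.3% against 56.1% in NSC, 36.7% in EpiSC and 12.3% in MEF.

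The highest-scoring ESC site at Etv5 was also open in EpiSC and NSC. It lay at chr16:22398322-22399220, with a score of 15.7 that put it at the 99.6th percentile of its list, and it overlapped EpiSC sites with scores up to 9.10 and NSC sites with scores up to 4.40, but no MEF site. The score is the authors' own, has no stated unit and ranks a site within its list, so percentiles are given for comparison. Of the ESC sites here, 16 of 59 were above the 90th percentile of the ESC list, against 6 of 40 in EpiSC, 3 of 51 in NSC and 1 of 14 in MEF. The share above that percentile is 10.0% over each list. ESC sites at Etv5 had a median score percentile of 79.5, EpiSC sites of 55.2, NSC sites of 40.3 and MEF sites of 35.2.

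One region of Etv5 was strong in every list. At chr16:22438007-22442381 merged sites of all 4 lists spanned 4375 bp, with top scores of 13.8 in ESC (percentile 98.9), 10.6 in EpiSC (98.3), 11.6 in NSC (95) and 7.91 in MEF (93.8). It held the widest ESC site (3629 bp), the widest and highest-scoring EpiSC site (2109 bp), the widest NSC site (3556 bp) and the widest and highest-scoring MEF site (1331 bp) of the locus. The highest-scoring NSC site lay next to it, at chr16:22437119-22437997, with a score of 13.8 (percentile 97.5). It overlapped a MEF site of score 3.64 (percentile 56.5) and neither pluripotent list. Another 3 regions held sites of all 4 lists, at chr16:22427877-22431193, chr16:22433361-22435570 and chr16:22402520-22403410. The first had scores of 13.9 in ESC, 8.69 in EpiSC, 4.36 in MEF and 9.27 in NSC.

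**Figure D2:**
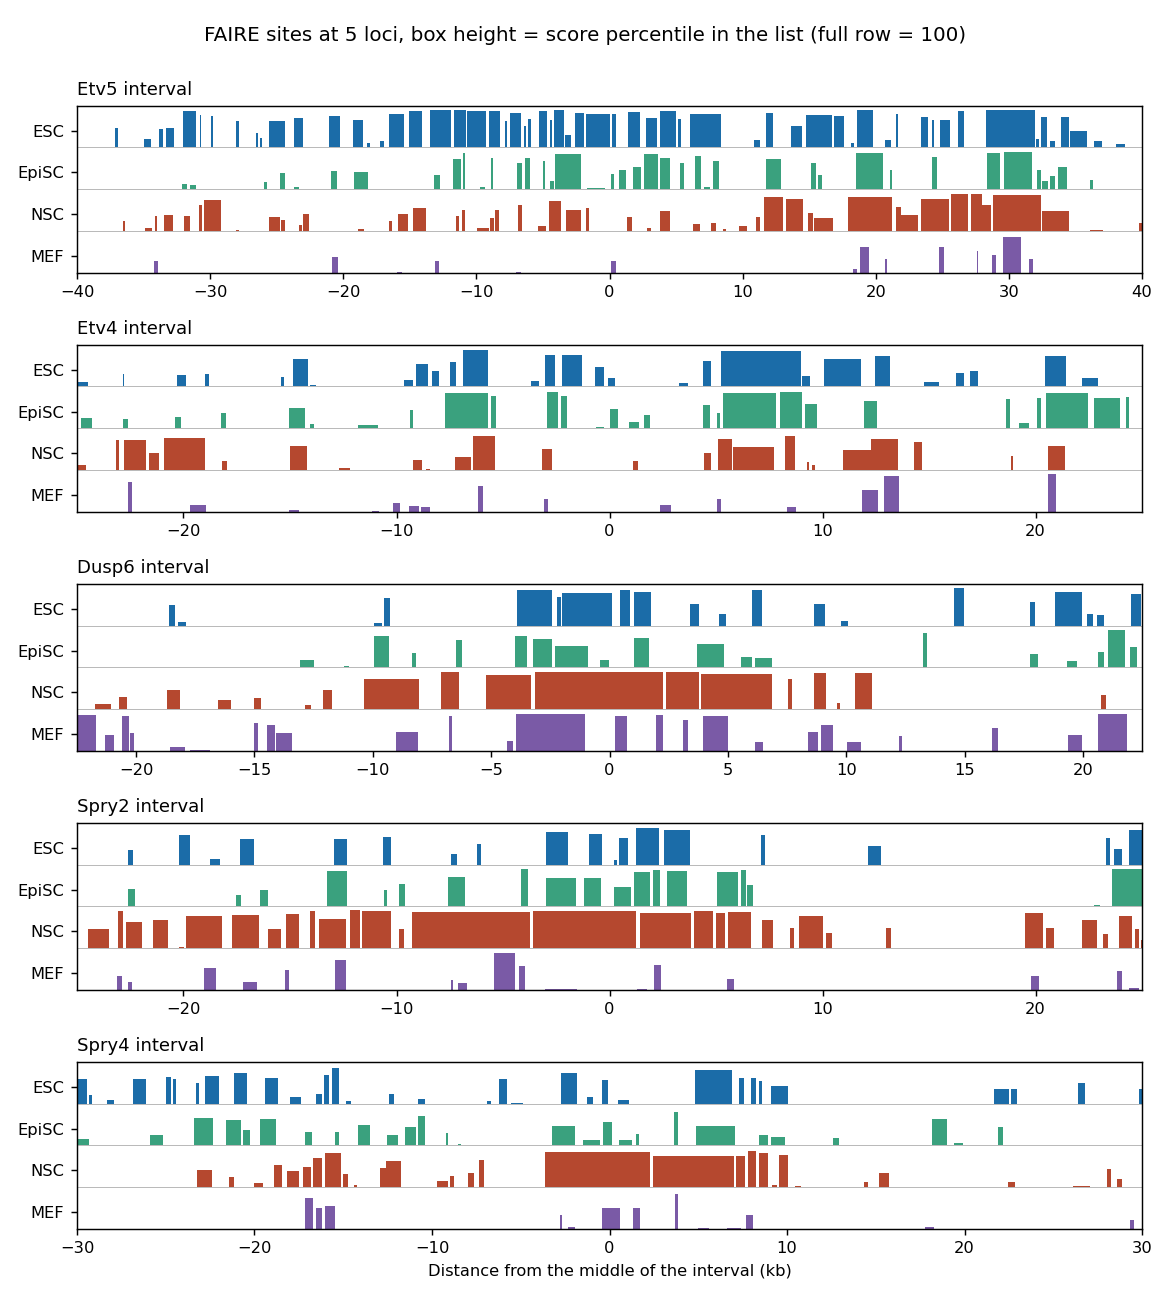
Maps of the 5 loci. Each row is the list of 1 cell type, each box a site at its position (kb from the middle of the interval) with its width to scale, and box height is the percentile of its score within its own list. At Etv5 ESC boxes cover 73.6% of bases from 22400001 to 22410000 and NSC boxes 88.9% from 22430001 to 22440000. Right of the middle neither leads throughout: from 22410001 to 22420000 ESC boxes cover 57.6% and NSC boxes 29.0%. NSC boxes cover 91.4% of the 10 kb from 98725001 at Dusp6.

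Etv4, the close relative of Etv5, was open to a similar extent in ESC, EpiSC and NSC, and less in MEF. It held 29 ESC, 28 EpiSC, 25 NSC and 15 MEF sites in 50 kb, covering 38.0%, 33.9%, 32.2% and 12.6% of bases. As many sites were found in 4.32%, 0.611%, 9.42% and 16.3% of the 49434 autosomal windows of that length. Chromosome 11 was itself dense, with a median window of 12 ESC and 13 EpiSC sites against 5 and 7 over all autosomes. Relative to their own chromosome the numbers were 2.42 times the median in ESC, 2.15 in EpiSC, 1.36 in MEF and 1.92 in NSC. Relative to the surrounding 2 Mb they were 1.44 times in NSC, 1.31 in ESC, 1.29 in EpiSC and 1.22 in MEF. With lists of equal length Etv4 held 24 ESC, 28 EpiSC, 17 NSC and 13 MEF sites.

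The leading sites at Etv4 were shared by the cell types. The highest-scoring ESC site, chr11:101633104-101634272 (13.1, percentile 98.5), overlapped sites of all the other lists, with top scores of 8.28 in EpiSC, 4.33 in MEF and 9.64 in NSC. The widest ESC site, of 3779 bp at chr11:101645215-101648993, overlapped the widest sites of EpiSC (2523 bp) and NSC (1943 bp) and lay in a region open in all lists. The highest-scoring MEF site was narrow, 375 bp at chr11:101660568-101660942, and its score of 15.1 ranked 766th in the MEF list. The same place had scores of 6.65 in ESC, 8.01 in EpiSC and 5.15 in NSC. With 9 merged regions that held sites of all 4 lists, Etv4 had the most of the loci. Among these, at chr11:101617165-101618245, the MEF site overlapped an NSC site only. The median score percentile at this locus came to 37.0 for ESC, 57.6 for EpiSC, 53.5 for NSC and 23.3 for MEF.

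Dusp6, the ERK phosphatase, was the locus with the most MEF sites. It held 25 MEF, 20 ESC, 19 EpiSC and 19 NSC sites in 45 kb. NSC sites were wide and covered 43.4% of bases, MEF sites covered 32.9%, ESC 24.1% and EpiSC 22.6%. In MEF 0.830% of the 54929 autosomal windows of 45 kb held as many sites, against 13.8% in ESC, 5.22% in EpiSC and 16.6% in NSC. The number of NSC sites was below that of the surrounding 2 Mb (0.833 times), whereas it was 3.38 times in ESC, 2.48 times in EpiSC and 2.0 times in MEF. Of the MEF sites, 9 lay in the first 10 kb, from 98705001 to 98715000, where they covered 43.3% of bases. There NSC had 7 sites, ESC 2 and EpiSC 1.

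The middle of Dusp6 was open in every cell type and most continuously in NSC. From 98725001 to 98735000 NSC sites covered 91.4% of bases, EpiSC sites 48.7%, ESC sites 45.3% and MEF sites 39.6%. A merged region of 7483 bp at chr10:98722276-98729758 had top scores of 10.2 in ESC (percentile 94.7), 5.53 in EpiSC (83.6), 14.7 in NSC (98.1) and 9.67 in MEF (97.3). Within it 1 NSC site was 5392 bp wide and overlapped 5 separate ESC and 4 EpiSC sites. The next region, chr10:98729890-98734378, held the highest-scoring NSC site (16.0, percentile 98.7), with 10.3 in ESC, 3.60 in EpiSC and 7.63 in MEF. In both regions the top EpiSC site ranked lower in its list than the top sites of the other cell types in theirs.

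Each pluripotent cell type had its strongest Dusp6 site where the other had none. In ESC it lay at chr10:98742033-98742480 (448 bp), with a score of 14.9 at the 99.4th percentile, and overlapped no site of any other list. In EpiSC it lay at chr10:98748564-98749265, with a score of 12.2 at the 99.2nd percentile, and overlapped a MEF site of score 9.64 but no ESC or NSC site. EpiSC had been expanded on MEF feeders before they were taken off, and the part of feeder chromatin in this site was not tested. Neither site has a replicate check.

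Spry2, encoding a Sprouty inhibitor, lay within the broad domain of dense NSC sites on distal chromosome 14. It held 32 NSC sites and 19 in each other list in 50 kb, and NSC sites covered 62.7% of bases against 23.3% in EpiSC, 19.4% in ESC and 15.9% in MEF. As many sites were found in 2.99% of autosomal windows of 50 kb in NSC, 19.4% in ESC, 8.0% in EpiSC and 6.85% in MEF. Within the domain, taken from 86000001 to 121000000, the 32 NSC sites were ordinary, since the median window of 50 kb held 30 and 46.7% of 700 windows held at least as many. In the other lists the locus stood above the domain. The median window there held 1 ESC, 3 EpiSC and 6 MEF sites, and 4.14%, 2.43% and 2.43% of windows held 19 or more.

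The core of Spry2 was open in all 4 lists. A region of 7434 bp at chr14:106291400-106298833 had 6 ESC and 6 EpiSC sites, 2 wide NSC sites and 4 MEF sites. Its top scores were 11.9 in ESC (percentile 97.4), 9.44 in EpiSC (97.1), 17.2 in NSC (99.1) and 4.21 in MEF (65.9). The neighbouring region chr14:106285715-106291273 was a single NSC site of 5559 bp with a score of 12.4. In it EpiSC reached 10.7 (98.4) and MEF 11.3 (98.8) at different places, but ESC only 3.82 (56.1). The MEF site of 11.3, chr14:106289560-106290580, overlapped NSC alone. The EpiSC site of 10.7, chr14:106290857-106291164, was the highest-scoring one of the locus with no ESC overlap. It overlapped a MEF site of 4.02 (62.9), and the part of feeder chromatin in it was not tested. NSC also had a site of its own at chr14:106282791-106283301, with a score of 29.7 that ranked 82nd of the 555868 NSC sites. NSC sites ran on through the left part of the interval as 1 cluster of 24 sites over 34.9 kb, from 106270517 to 106305448. Its median score was 8.65. All 32 NSC sites of the interval had a median score of 7.26, against 6.80 for the NSC sites of the domain.

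Spry4, encoding another Sprouty inhibitor, resembled Etv4 in having similar numbers in the full lists of ESC, EpiSC and NSC and fewer in MEF. With lists of equal length the NSC number at Spry4 was 19, below 28 in ESC and 29 in EpiSC. In the full lists Spry4 held 33 ESC, 29 EpiSC, 31 NSC and 13 MEF sites in 60 kb, covering 27.0%, 30.4%, 39.2% and 10.1% of bases. As many were found in 5.40%, 1.75%, 7.68% and 33.8% of the 41193 autosomal windows of 60 kb. Chromosome 18 was sparse in EpiSC, with a median window of 5 sites against 8 over all autosomes. The EpiSC number at Spry4 was 5.80 times the median of its chromosome and 3.62 times that of all autosomes. Beside the surrounding 2 Mb, Spry4 stood out less, with EpiSC sites at 2.17 times the number expected from there. ESC sites came to 1.71 times and NSC sites to 1.32 times, while MEF sites were below their surroundings (0.924 times). EpiSC scores there were low, with a median of 2.15 at the locus, 2.67 on the chromosome and 2.90 over the list, and none of the 29 sites was above the 90th percentile of the list.

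The strong sites of Spry4 lay in the middle and also to its left. The widest NSC site of all 5 loci, 5913 bp at chr18:38751378-38757290 (score 10.4), lay over 4 ESC, 5 EpiSC and 4 MEF sites. The neighbouring region chr18:38757449-38762622 was open in all lists, with top scores of 8.29 in ESC, 6.38 in EpiSC, 7.37 in MEF and 7.63 in NSC. In it the highest-scoring EpiSC site, chr18:38758662-38758867, and the highest-scoring MEF site, chr18:38758675-38758834, overlapped each other and NSC, but not ESC. The part of feeder chromatin in that EpiSC site was not tested. The highest-scoring ESC site, chr18:38739364-38739777 (10.6, percentile 95.4), lay to the left and coincided with an NSC site of 10.1 (percentile 92.0), an EpiSC site of 2.20 and a MEF site of 3.81. The highest-scoring NSC site, chr18:38762780-38763241 (12.3), overlapped ESC and MEF sites and no EpiSC site.

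**Figure D3:**
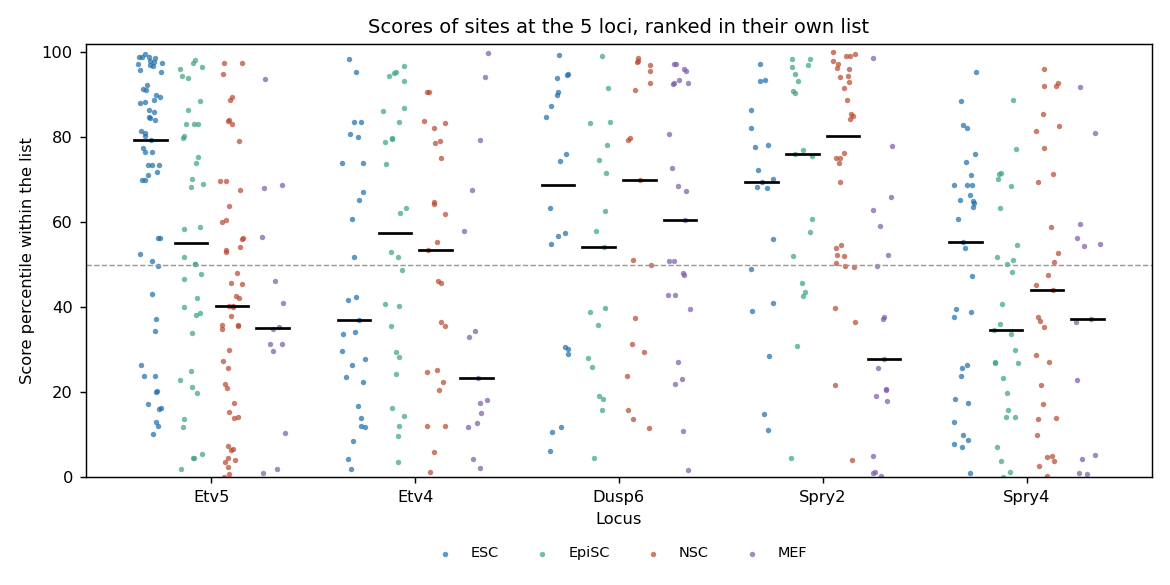
Score percentile of each member site within its own list (points) by locus and cell type, with the median of the group as a black bar and the median of any list at the dashed line. The ESC median is 79.5 at Etv5 and 37.0 at Etv4; the NSC median is 80.4 at Spry2; the MEF median is above 50 at Dusp6 alone, where it is 60.5.

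ESC and EpiSC sites were then compared by overlap. Of the 160 ESC sites, 95 (59.4%, exact 95% interval 51.3 to 67.1) overlapped an EpiSC site, against 40.1% of all ESC sites. Of the 135 EpiSC sites, 96 (71.1%, 62.7 to 78.6) overlapped an ESC site, against 45.0% of the list. The intervals are Clopper-Pearson, reflect counting error alone and treat neighbouring sites as independent, which they are not. By locus, 37 of 40 EpiSC sites overlapped ESC at Etv5, 18 of 28 at Etv4, 13 of 19 at Dusp6, 12 of 19 at Spry2 and 16 of 29 at Spry4. Of the EpiSC sites at Etv5 without an ESC partner the strongest, chr16:22410703-22411263, scored 3.00 (percentile 51.9). In ESC the strongest one without an EpiSC partner there, chr16:22394923-22395941, scored 12.2 (97.8) and overlapped an NSC site of 4.73. At Etv4 the strongest unpartnered sites scored 5.59 in ESC (chr11:101650057-101651825) and 5.93 in EpiSC (chr11:101634440-101634670), and both were open in NSC. For ESC the strongest were chr14:106302100-106302298 at Spry2 (6.33) and chr18:38738902-38739195 at Spry4 (5.92), and NSC sites overlapped both.

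Over all 5 loci, overlap with NSC was at least as frequent as that between the pluripotent lists, but for EpiSC this rested on Spry2. Of the ESC sites 113 (70.6%, 62.9 to 77.6) overlapped NSC, against 33.1% of the list, and of the EpiSC sites 98 (72.6%, 64.3 to 79.9), against 38.9%. At Spry2, in the domain of dense NSC sites, 19 of 19 EpiSC and 18 of 19 ESC sites overlapped NSC. Without Spry2, 68.1% of EpiSC sites overlapped NSC and 72.4% ESC, while 67.4% of ESC sites overlapped NSC and 58.2% EpiSC. Overlap with NSC was also the less frequent of the pair for EpiSC sites at Etv5 (75.0% against 92.5%) and Etv4 (60.7% against 64.3%), and for ESC sites at Etv4 (55.2% against 62.1%). Of the NSC sites 98 (62.0%) overlapped ESC and 83 (52.5%) EpiSC, against 25.3% and 26.7%. MEF sites, although few, mostly lay where others were: 71 of 86 (82.6%, 72.9 to 89.9) overlapped NSC, against 40.1% of the MEF list, 53 overlapped ESC (25.0% of the list) and 48 EpiSC (26.6% of the list). These loci are dense, with up to 62.7% of an interval in NSC sites, and the part of density in these shares was not tested. By shared bases, which count the bases in both lists over those in either, ESC and EpiSC shared 37.9% over the 5 loci (23.6% over the whole lists), ESC and NSC 34.8% (13.3%) and EpiSC and NSC 33.1% (15.0%). NSC and MEF shared 21.2% (15.3%), EpiSC and MEF 19.2% (12.4%) and ESC and MEF 16.7% (10.4%), so that every pair stood above its whole lists, ESC with NSC by the most. At Etv5 ESC shared more with NSC (44.3%) than with EpiSC (40.7%), and at Spry2 more with EpiSC (41.7%) than with MEF (30.7%) or NSC (24.6%).

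Sites in no other list were few. They numbered 28 of 160 in ESC (17.5%, against 40.0% of the list), 15 of 135 in EpiSC (11.1%, against 30.7%), 35 of 158 in NSC (22.2%, against 47.8%) and 9 of 86 in MEF (10.5%, against 43.6%). Of the 9 MEF sites 6 lay at Dusp6, and of the 35 NSC sites 10 lay at Spry2. At Spry2 no EpiSC or MEF site and 1 ESC site stood alone. Merging the lists gave 198 regions at the loci. Merging joins sites that overlap in a chain, so a region of all 4 lists need not hold a base that all 4 share. Of the regions 26 (13.1%) held sites of all 4 lists, against 4.05% of all merged regions, and 87 (43.9%) of 1, against 66.1%. The part of wide sites and chaining in these shares was not tested. The most frequent of the combinations with more than 1 list was ESC with EpiSC and NSC, with 27 regions (13.6%, against 2.96% of all regions), of which 17 lay at Etv5. ESC with NSC alone followed among those without MEF, with 16 regions (8.08%, against 3.03%), of which 11 lay at Etv5.

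**Figure D4:**
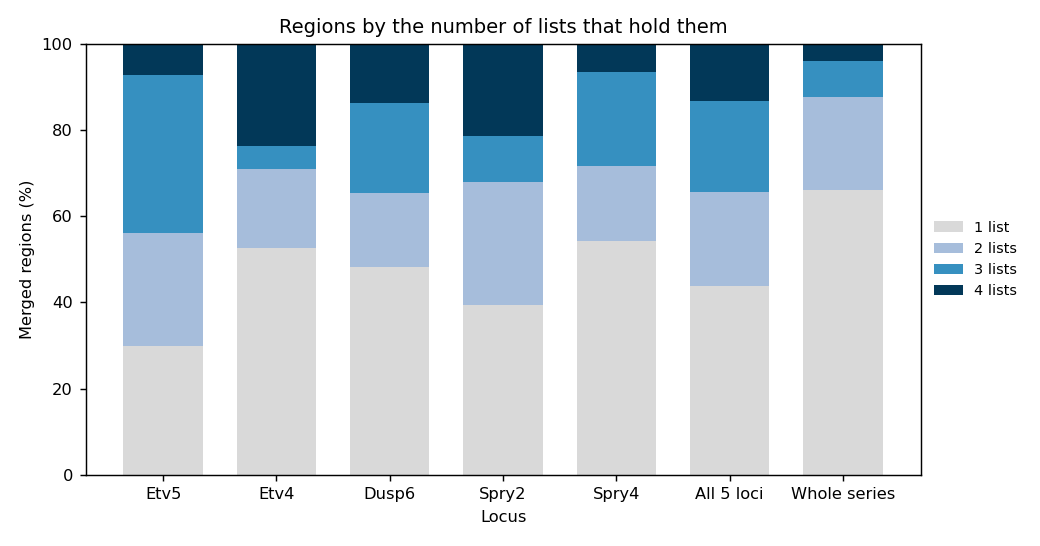
Merged regions by the number of lists that hold them, as a percentage of the regions of each locus, of all 5 loci (198 regions) and of the whole series (1134236 regions). Regions of 1 list make up 43.9% at the 5 loci and 66.1% in the series, and regions of all 4 lists 13.1% and 4.05%.

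Wide sites of 2 kb or more were found at all 5 loci. NSC had 12 such sites among its 158 members (7.59%, against 1.34% of the NSC list), ESC 5 of 160 (3.12%, against 1.76%), EpiSC 4 of 135 (2.96%, against 1.19%) and MEF 1 of 86 (1.16%, against 0.272%). The NSC ones numbered 4 at Etv5, 3 at Dusp6, 3 at Spry2 and 2 at Spry4. The MEF one, of 2946 bp at Dusp6, is also the highest-scoring MEF site of that locus. At Spry2 the widest MEF site, chr14:106291982-106293450 with 1469 bp, had a score of 1.39, at the 0.9th percentile of its list, while the NSC site over it scored 17.2.

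Some sites crossed the limits of the intervals. At the 40 edges (5 loci, 4 lists, both sides) the outermost member site had a score of 1.57 to 15.1, with a median of 2.82, and 10 such sites crossed the edge. The first site outside scored 1.27 to 10.0, with a median of 2.67, and lay a median of 1.21 kb and at most 45.2 kb away.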

How the data were processed

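FAIRE-seq site lists of 4 mouse cell types were used, 1 list each, filed with replicate 2. The other 6 of the 10 samples, both genomic controls included, were not analysed here. The submitters' processing notes name CASAVA 1.8 and build mm9. The site caller, its thresholds, whether the control entered and whether replicates were pooled are points not stated in the sources used here. Each deposited list gives positions, a score made by the authors and a display value, which repeats the score times 100, within 1 and up to 1000. Only the score was used, within its list.

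Intervals were read as 0-based and printed 1-based. Overlap meant at least 1 bp. Windows were all whole, non-overlapping autosomal stretches of an interval's length. The surroundings were 1 Mb on both sides. To bound the chromosome 14 domain, the autosomal mean was taken from the NSC count of each Mb, and the run of Mb whose remainders added up highest was kept. Clusters join member sites with gaps of at most 1 kb and end at the interval. Named sites were, for each locus and list, the highest-scoring, the widest and the longest cluster. Also named were the strongest site of ESC and of EpiSC without the other, and merged regions that held sites of all lists. The windows of 10 kb and the other details were chosen after the values were seen, as were the members and lists, with earlier results of these data known. Other genes of the pathway were not placed, because no mm9 annotation was used. No test was run, since there is no replicate. Depth is unknown.

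Scripts ran in Python 3.11.15 (pandas 2.3.3, numpy 2.4.6, scipy 1.17.1) with figures by matplotlib 3.10.9. Overlaps were tested on simulated data and gave the same counts as bedtools 2.31.1.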

Additional observations from a re-analysis of the deposited data

How the results depend on the processing

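With the 50% of each list that scored highest, the loci held 101 ESC, 74 EpiSC, 83 NSC and 36 MEF sites. Cutting the lists can only lower these totals, but the shares kept were unequal. ESC kept 101 of 160 sites, whose median score percentile was 67.6 before the cut, and MEF 36 of 86, with 40.3. The shares kept by EpiSC and NSC lay between these. Of the 101 ESC sites, 48.5% overlapped an EpiSC site. With sites under 200 bp apart merged, 50 regions were open in 1 list, which merging brings about. The other 34 values of the totals, of the shares between ESC and EpiSC and of the regions of 1 or 4 lists stayed within 1.5 times or within their interval. By locus, MEF had the fewest sites at Etv5, Etv4 and Spry4 and the most at Dusp6, ESC the most at Etv5 and NSC the most at Spry2, each in all 7 settings. The order of the other lists was not stable. With lists of equal length the totals were 144 ESC, 135 EpiSC, 113 NSC and 73 MEF sites. EpiSC then led at Etv4 (28 against 24 in ESC) and at Spry4 (29 against 28), and NSC at Etv5 came to 33, below EpiSC with 40. NSC also came below both pluripotent lists at Etv4 (17) and Spry4 (19). With intervals shortened by 5 kb NSC led at Spry4 (28 against 27 in ESC and in EpiSC). Of the densities relative to windows, 13 of 20 moved by over 1.5 times against the surroundings and 5 against the same chromosome. No paired analysis was possible because a cell type is represented by 1 list, so no replicate could be left out either. Except where stated, the cause was not tested.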
